A study of Mus musculus with 25 samples.

Results

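The change in RNA between the mature mouse oocyte and the 2-cell embryo was described in 8 of the 25 libraries of the series, the 4 of MII oocytes and the 4 of 2-cell embryos that were cultured with PBS, a buffered salt solution. Libraries were chosen by stage and agent as the labels give them, and genes by level alone: of 35561 genes listed in either of the deposited tables, the 10814 that reached 1 FPKM or more in at least 4 of the 8 libraries were tested. FPKM is the number of fragments counted on a gene, scaled by its length and by the library's total. All animals were of strain C57BL/6. The oocytes (n = 4) were collected as immature germinal vesicle oocytes and matured in culture for 16 h in M16 medium to metaphase II (MII), the arrest in which the egg waits for the sperm. The 2-cell embryos (n = 4) came from in vitro fertilization lasting 6 h, were grown in G1 medium and were scored at 24 h. Libraries were made with Smart-seq2, which copies polyadenylated RNA into full-length cDNA and amplifies it. The other libraries were of morulae or had VCD, a small molecule added to the medium, in place of PBS. Whether the fertilized oocytes had also been matured in culture is not stated. The number of oocytes or embryos behind a library is not given in the sources used here, nor whether replicates are separate animals or cultures. A p-value therefore reflects no more than how much these libraries vary, which may be technical.

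The oocyte stores RNA and protein for the first days of development. During maturation and after fertilization the stored RNA is translated, loses its poly(A) tail and is degraded, while the genome of the embryo, silent in the MII oocyte, begins to be transcribed. In the mouse the first broad wave of transcription falls in the 2-cell stage. Among the genes known to be switched on there are the Zscan4 cluster, Zfp352, Usp17l and Tdpoz genes and members of the Obox homeobox family.

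The oocytes and the 2-cell embryos were deposited in separate tables and are separate runs. Stage coincides with run and with culture medium, and these cannot be told apart in any comparison of the stages below. The size of 1 read, worked out from the values, implied 16902056 to 18957420 counted reads or fragments in the MII libraries and 15705351 to 18661495 in the 2-cell libraries (exact two-sided permutation test, p = 0.171). In both tables the values were scaled by each library's own total, so that levels could be set against each other. The tables used different versions of the gene annotation. Identifiers above the highest in the embryo table occurred 522 times in the oocyte table and 0 times in the embryo table, and 54 of them were tested; they stand at 0 in the 2-cell libraries only because they are not listed there. All 54 are counted among the falls below, under every scaling, and their falls cannot be told from the difference in annotation. Values of 10222 tested genes (94.5%) fitted the same length in both tables, those of 554 fitted different lengths, 37 were not examined and 1 was not settled. The filter passed Dyrk4 and Alyref2, whose values ranked 4 among the 8 were 1.0002 and 1.0004 FPKM, and left out Gm6123 and Ccdc107, with 0.9997 and 0.9966 at that rank.

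The libraries themselves differed between the stages. In MII oocytes 8527 ± 112 genes reached 1 FPKM (SD, n = 4 libraries, as for all values below), and in 2-cell embryos 11354 ± 203. The mitochondrially encoded protein genes held 1.82% ± 0.272 of all FPKM in MII oocytes and 6.10% ± 0.426 in 2-cell embryos. The 10 most abundant genes held 16.8% ± 0.0636 and 18.0% ± 0.603. Groups did not overlap in any of these measures (exact two-sided permutation test, p = 0.0286 for each, adjusted p = 0.0286, the smallest value that 4 against 4 libraries allow). Across the tested genes, Pearson's r lay between 0.991 and 0.992 for pairs of MII libraries, between 0.976 and 0.982 for pairs of 2-cell libraries, and between 0.666 and 0.698 for an MII library with a 2-cell library.

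Of the 10814 genes, 3641 were higher in the 2-cell embryo (33.7%) and 1374 lower (12.7%), at an adjusted p below 0.05 and a change of at least 1 on the log2(FPKM + 1) scale, which is a 2-fold change for abundant genes and understates that of low ones. These are the calls meant by rose and fell below, and the 2 percentages are the background for each count of members. They do not allow for level: 9.2% of genes between 1 and 10 FPKM in MII oocytes fell and 38.6% of those between 100 and 1000. For lists of abundant oocyte RNAs 12.7% is therefore a low background. When identifiers missing from the embryo table are left aside, 1320 genes fell. By the adjusted p alone 8929 genes passed (82.6%), 6084 of them higher (56.3%) and 2845 lower (26.3%). Groups of libraries did not overlap for 8441 genes (78.1%), among them 4992 of the 5015 called. Changes of 16-fold or more on this scale numbered 231 upward and 42 downward, and those of 64-fold or more 72 upward and 8 downward; 11 and 2 of these falls are identifiers missing from the embryo table. The genes that rose held 10.6% to 11.1% of all FPKM in MII oocytes and 38.9% ± 0.512 in 2-cell embryos, and the genes that fell 31.5% ± 0.340 and 5.83% ± 0.405, as follows from how they were called.

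How often genes rose or fell varied with their level, in opposite ways for the levels of the 2 stages, as sorting by one of the stages compared brings with it. Of 2405 tested genes with a mean below 1 FPKM in MII oocytes, 1833 rose. Among the 5251 genes between 1 and 10 FPKM in MII oocytes 1364 rose and 483 fell, and among the 453 between 100 and 1000 FPKM 47 rose and 175 fell. Of the 38 genes at 1000 FPKM or more in MII oocytes 3 rose, 13 fell and 22 were not called. Sorted by 2-cell level instead, 274 of 518 genes below 1 FPKM fell and none rose, and of the 38 at 1000 FPKM or more 14 rose and none fell. Passing the filter through one stage alone fixes the direction: 1977 genes did so through the 2-cell libraries, 375 of them at 0 in all 4 MII libraries, and 341 through the MII libraries. Of the 375, 74 are listed at 0 in the oocyte table and 301 have no entry there and were set to 0, since genes at 0 throughout a table are not listed and the annotations differ. Among the 8496 genes at 1 FPKM or more in libraries of both stages, 2005 rose and 1155 fell. By annotated type, 2650 of 8869 protein-coding genes rose and 1219 fell. Among 876 pseudogenes 446 rose and 73 fell, and 430 rose and 77 fell of 886 long noncoding RNAs. Of these, 1302 protein-coding genes, 317 pseudogenes and 266 long noncoding RNAs passed through the 2-cell libraries alone, so the types are not compared.

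**Figure D1:**
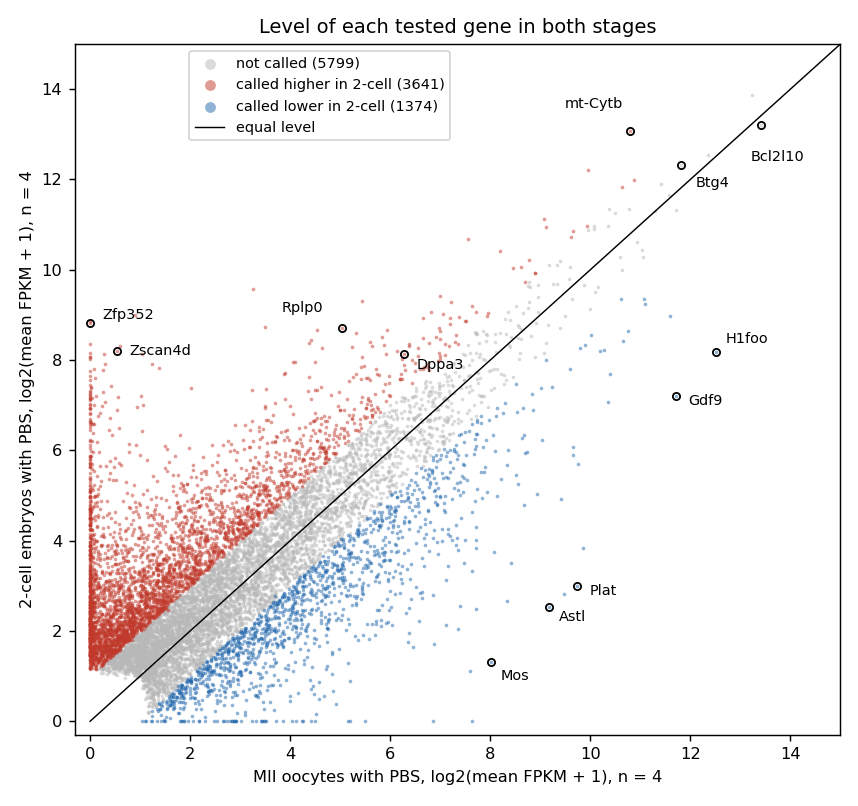
Mean level of each of the 10814 tested genes in MII oocytes (x axis) and 2-cell embryos (y axis), both as log2(mean FPKM + 1) over 4 PBS libraries; red points were called higher (3641), blue points lower (1374) and grey points were not called, and the line marks equal levels. Zfp352 and Zscan4d stand at the left edge, Mos, Astl and Plat at the lower right, and Bcl2l10 and Btg4 near the line; the 54 identifiers missing from the embryo table lie on the lower edge.

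The balance of rises and falls depends on the scale set between the libraries. The median change of all genes was 0.50 on the log2 scale with FPKM as deposited, and 72.6% of called genes were higher. With the same sum of FPKM in every library 3104 genes rose and 1683 fell (64.8% higher, median change 0.32). Leaving mitochondrial and the most abundant genes out of that sum gave 3154 and 1646 (65.7%, 0.34). Centring each library on its median gave 2892 and 1779 (61.9%, 0.26), and quantile normalization gave 2102 and 2351 (47.2%, median change -0.05). No called gene was called in the other direction under any of these 4 scalings. Called higher under all of them were 2077 genes (19.2%), and called lower 1374 (12.7%). All 4 scalings lowered the median change, so falls kept their calls largely by construction, here and in the lists below. That falls held under them does not make falls firmer than rises. FPKM are shares of a library, so fewer cells and less RNA per cell cannot be told apart, and neither can a longer poly(A) tail and more RNA.

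**Figure D2:**
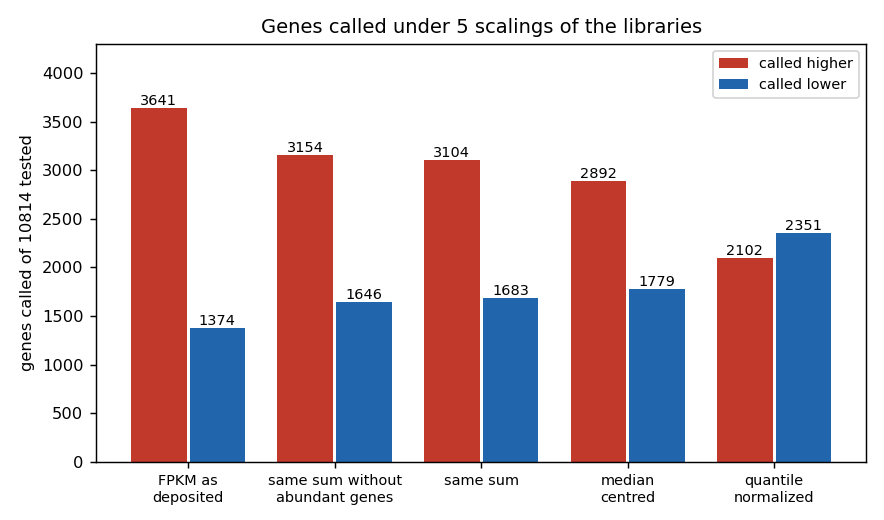
Number of genes called higher (red) and lower (blue) of 10814 tested, under the deposited FPKM and 4 other scalings of the libraries. Higher calls outnumber lower ones with FPKM as deposited (3641 and 1374), and lower calls outnumber higher ones after quantile normalization (2102 and 2351).

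Of 29 listed transcripts of the first broad genome activation 26 were tested and 25 rose, with none lower and a median change of 4.96. The calls held under all 4 other scalings for 25. Since 21 of the 26 passed the filter through the 2-cell libraries alone, their direction was fixed by the filter. With the 8 genes at 0 in one stage set to a floor of 3 reads over the 4 libraries, the median was 4.94. Sp110, the 1 tested member that was not called, changed by -0.05.

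Zfp352, which encodes a zinc finger protein, lies at chr4:90218820-90225702 on the plus strand (GENCODE M21, GRCm38). It was listed at 0 in all 4 MII libraries and had 475, 392.4, 423 and 500.5 FPKM in the 2-cell libraries (adjusted p = 1.11e-13). In morulae it stood at 6.99 FPKM, so it was high in the 2-cell libraries and near 0 before and low after. Zscan4d, a DNA-binding protein linked to telomere maintenance, lies at chr7:11161374-11166159 on the minus strand. It had 0.228, 0.534, 0.573 and 0.447 FPKM in MII oocytes and 302, 279, 312.5 and 286 FPKM in 2-cell embryos, a change of 7.68 (SE 0.10, adjusted p = 3.37e-13). Every 2-cell library lay far above every MII library, and morulae had 0.747 FPKM.

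Of the 50-base words of Zscan4d's annotated transcripts, 49.6% also occur in transcripts of another gene, so reads can be split among the copies. All 9 Zscan4 loci in the tables rose, 8 of them passing the filter through the 2-cell libraries alone, and their summed level was 8.82 to 13.9 FPKM in MII libraries and 841.6 to 1006 FPKM in 2-cell libraries. Zscan4c, a second copy in the cluster, had 0.101 to 0.141 FPKM in MII oocytes and 96.1 to 113 in 2-cell embryos, a change of 6.59 (SE 0.09, adjusted p = 3.97e-13). The 5 Usp17l genes, which encode deubiquitinating enzymes, and the 5 Tdpoz genes also all rose, and all of these passed through the 2-cell libraries alone. Usp17lb, the highest of the former, went from 0.188 ± 0.0394 to 156 ± 17.3 FPKM.

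The promoter windows of Zscan4d, Zscan4c and Zfp352 are shown because all 3 genes rose: a pair of near copies and a gene of another family. A window runs from 250 bases before to 50 after the annotated start (RefSeq, GRCm38.p6), is written 5′ to 3′ on the gene's strand, and has in capitals each match, on either strand, to 6 motifs. The general promoter motifs searched were CCAAT, bound by the factor NF-Y, then the box written TATAAA near the start of many genes, and the box GGGCGG bound by Sp1. The others were TAATCC, the core bound by bicoid-type homeobox proteins, then AAGGTCA, a half-site of nuclear receptors, and finally the E-box core CACGTG, which reads the same on either strand.
Zscan4d, chr7:11166099-11166398, minus strand: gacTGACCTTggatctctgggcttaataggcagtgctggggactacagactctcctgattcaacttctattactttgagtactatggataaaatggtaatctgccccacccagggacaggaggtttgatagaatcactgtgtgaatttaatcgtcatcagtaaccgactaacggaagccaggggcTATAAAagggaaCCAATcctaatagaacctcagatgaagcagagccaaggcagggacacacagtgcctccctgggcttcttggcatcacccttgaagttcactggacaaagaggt
Zscan4c, chr7:11005495-11005794, plus strand: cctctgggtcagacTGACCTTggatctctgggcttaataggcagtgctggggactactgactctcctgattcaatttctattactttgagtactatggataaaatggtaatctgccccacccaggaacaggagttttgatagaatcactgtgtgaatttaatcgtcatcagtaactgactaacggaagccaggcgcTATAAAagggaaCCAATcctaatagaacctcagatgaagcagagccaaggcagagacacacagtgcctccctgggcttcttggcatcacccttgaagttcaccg
Zfp352, chr4:90218570-90218869, plus strand: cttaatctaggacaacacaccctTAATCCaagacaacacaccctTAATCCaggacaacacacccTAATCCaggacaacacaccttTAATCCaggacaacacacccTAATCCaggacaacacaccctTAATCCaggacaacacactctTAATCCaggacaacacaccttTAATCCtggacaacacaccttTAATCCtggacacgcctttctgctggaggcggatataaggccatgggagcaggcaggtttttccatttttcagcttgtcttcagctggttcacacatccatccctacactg
The Zscan4d and Zscan4c windows matched at 281 of 289 bases (97.2%) when overlapped without gaps. Each held 1 TATAAA, 1 CCAAT and 1 AAGGTCA, the last read on the other strand. Among all 32851 windows of the same length, 13.6% held TATAAA, 37.4% CCAAT and 4.72% AAGGTCA. The Zfp352 window held TAATCC 9 times in a tandem repeat and none of the other 5 motifs. TAATCC occurred in 7.06% of all windows, at least 2 times in 0.359%, and 9 times in 1 window, that of Zfp352. A match describes the letters only and is not a binding site.

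Among the Obox families, 3 of the 7 protein-coding genes rose and 1 fell. The 3 that rose passed the filter through the 2-cell libraries alone, which fixes their direction. These families were examined after their values were seen. Obox6 rose from 0.226 ± 0.155 to 133 ± 8.09 FPKM and stood at 1192 FPKM in morulae, Obox3 rose from 0.0714 to 20.9 FPKM, and Obox8 rose from 0.0127 to 3.20. Obox2 fell from 363 ± 33.9 to 42.6 ± 8.94 FPKM (change -3.08, SE 0.14, adjusted p = 4.86e-09), although 65.1% of its words are shared. Obox1, Obox5 and Obox7 were not called, with 308, 1073 and 212 FPKM in MII oocytes and 202, 1994 and 189 in 2-cell embryos. Of 19 tested Obox3 and Obox4 copies named as pseudogenes 18 rose, 15 of them under every scaling. The filter fixed the direction of 18 that passed through the 2-cell libraries alone, and 22 further copies were not tested. For the tested copies the summed level went from 1.17 to 3.27 FPKM in MII libraries to between 368 and 461 in 2-cell libraries.

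Other large rises included several gene models of little known function. By the naming rule these were Gm8332, A430060F13Rik, Obox4-ps35, AA623943, Gtpbp4-ps3, AF067061, Trim43b and Bex6, beside an identifier, ENSMUSG00000086151, that is not in GENCODE M21 and whose values are not interpreted. Gm8332 was listed at 0 in MII oocytes and at 401, 499, 449 and 507 FPKM in 2-cell embryos, and 100% of its words are shared with other genes. Trim43b, of the tripartite motif ubiquitin ligases, was listed at 0 in MII oocytes, had 94.2 to 114 FPKM in 2-cell embryos and 1600 FPKM in morulae. Bex6 went from 0.463 ± 0.378 to 144.5 ± 24.9 FPKM and stood at 180.4 FPKM in morulae.

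The pseudogene Gtpbp4-ps3 varied more between libraries, with 257, 78.8, 112 and 107 FPKM in the 4 of 2-cell embryos. It has no entry in the oocyte table, as is also true of AF067061, Obox4-ps35 and ENSMUSG00000086151.

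Several RNAs of the oocyte's own products fell more than 16-fold on this scale. Among the falls that the naming rule chose, Gm6201 came first but is not listed in the embryo table, and next was Plat, the tissue plasminogen activator whose stored RNA is a textbook case of translation at maturation. Plat had 901, 863.5, 872 and 774 FPKM in MII oocytes and 6.58, 5.99, 7.24 and 8.17 in 2-cell embryos, a change of -6.74 (SE 0.09, adjusted p = 5.76e-13). Mos, the kinase that upholds the MII arrest, had 278, 259, 236 and 251 FPKM in MII oocytes and 1.85, 1.07, 1.49 and 1.51 in 2-cell embryos, a change of -6.70 (SE 0.10, adjusted p = 1.32e-12). For both genes every 2-cell library lay far below the lowest MII library.

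Of 6 genes of the egg coat and of sperm binding 4 fell and none rose, with a median change of -3.22. Astl encodes ovastacin, the protease that hardens the egg coat after fertilization, and went from 576 ± 49.4 to 4.76 ± 0.572 FPKM (change -6.65, SE 0.09, adjusted p = 5.76e-13). Zp3, a coat protein, had 894, 393, 781 and 642 FPKM in MII oocytes and 33.3, 24.4, 26.1 and 33.1 in 2-cell embryos. Its change was -4.44 (SE 0.22, adjusted p = 9.03e-09). The MII libraries varied widely for this gene, yet the lowest exceeded every 2-cell library. Zp1 fell from 406 ± 145.5 to 26.8 ± 0.876 FPKM and Zp2 from 413 ± 165 to 60.6 ± 7.61. The sperm receptor Izumo1r and the tetraspanin Cd9 were not called, with changes of 0.58 and 0.47.

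Among 7 secreted factors of the oocyte, Gdf9 fell and Bmp6 rose. Gdf9, a growth factor for the surrounding granulosa cells, had 3202, 3659, 3332 and 3261 FPKM in MII oocytes and 162, 135, 137 and 155 in 2-cell embryos, a change of -4.51 (SE 0.08, adjusted p = 4.22e-12). Its partner Bmp15 had 1956 ± 212 and 1562 ± 202 FPKM, a change of -0.33 (SE 0.11, adjusted p = 0.0171) that stayed under 2-fold. The groups overlapped for Bmp15 and were far apart for Gdf9. Bmp6, a bone morphogenetic protein, rose from 1.95 to 6.95 FPKM, although its values fitted different lengths in the 2 tables and its call was lost under quantile normalization (change 0.86).

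H1foo, the oocyte's own linker histone, was the third most abundant RNA of the MII oocyte. It had 5858, 5812, 5859 and 5856 FPKM there and 385, 249, 221 and 291 in 2-cell embryos, a change of -4.38 (SE 0.14, adjusted p = 3.61e-10). The windows of H1foo (listed as H1f8 in RefSeq) and Zp3 are shown beside those of the rising genes above.
H1foo, chr6:115944681-115944980, plus strand: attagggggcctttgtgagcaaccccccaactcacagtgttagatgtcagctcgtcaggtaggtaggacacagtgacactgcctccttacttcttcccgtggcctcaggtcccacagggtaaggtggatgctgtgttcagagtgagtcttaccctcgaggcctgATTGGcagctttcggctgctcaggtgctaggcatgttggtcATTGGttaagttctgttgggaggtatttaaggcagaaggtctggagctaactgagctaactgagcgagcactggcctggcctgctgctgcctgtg
Zp3, chr5:135979855-135980154, plus strand: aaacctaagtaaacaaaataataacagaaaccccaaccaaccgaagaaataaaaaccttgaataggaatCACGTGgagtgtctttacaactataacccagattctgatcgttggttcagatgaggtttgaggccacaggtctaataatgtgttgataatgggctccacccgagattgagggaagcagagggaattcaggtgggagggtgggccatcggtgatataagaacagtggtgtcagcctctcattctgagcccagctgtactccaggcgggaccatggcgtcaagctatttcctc
The H1foo window held 2 CCAAT, both on the other strand, and the Zp3 window 1 CACGTG, found in 7.15% of all windows. Neither held TAATCC or TATAAA. In the windows of Zscan4d, Zscan4c and Zfp352, TAATCC was found for Zfp352 only, and TATAAA for Zscan4d and Zscan4c only. These few windows were chosen, so no contrast between rising and falling genes is drawn from them.

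Other falls by the naming rule were those of Leprot, Txnip, Bub1b, Zdhhc24, Saraf, March7, Elovl5 and Fbxl6. Txnip, a thioredoxin-binding protein that restrains glucose uptake, went from 924 ± 45.1 to 13.2 ± 0.889 FPKM (change -6.03, SE 0.07, adjusted p = 3.37e-13). Leprot went from 193 ± 9.14 to 1.15 ± 0.699 FPKM, Saraf, a regulator of store-operated calcium entry, from a mean of 209 to 4.61 ± 0.675, and Elovl5, a fatty acid elongase, from 138 ± 5.48 to 3.39 ± 0.687. All 8 fell under each of the 4 other scalings as well, as did every gene called lower.

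**Figure D3:**
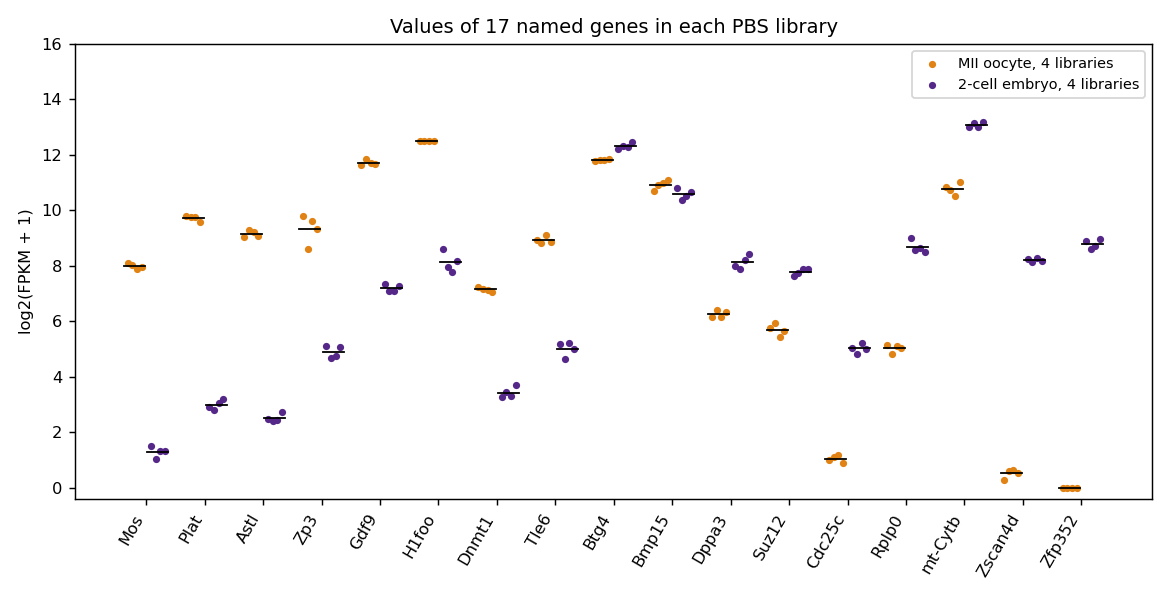
Values of 17 named genes in each of the 4 MII (orange) and 4 2-cell (purple) PBS libraries, as log2(FPKM + 1); bars mark the mean of each group on that scale. The 8 genes on the left fell, Btg4 and Bmp15 changed by less than 2-fold, and the 7 on the right rose; groups overlap for Bmp15.

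Of the abundant oocyte RNAs several changed by less than 2-fold. Bcl2l10, an anti-apoptotic protein of the oocyte, had 10829 ± 475 and 9403 ± 423 FPKM, and Spin1, a histone-reading protein, 5252 ± 299 and 5944 ± 428. Zbed3 had 9574 ± 351 and 14901 ± 2450 FPKM, a change of 0.62. Btg4, the adaptor that brings the CCR4-NOT deadenylase to maternal RNA, had 3502 to 3657 FPKM in MII oocytes and 4704 to 5647 in 2-cell embryos, a change of 0.51 (SE 0.08, adjusted p = 6.7e-05). The groups did not overlap for Btg4, but the change was smaller than 2-fold.

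The subcortical maternal complex is a protein assembly under the membrane of the egg that early cleavage needs. Of 14 tested members and maternal Nlrp genes 6 fell and 1 rose, and 7 were not called. Tle6 fell from 488 ± 44.0 to 31.8 ± 5.71 FPKM (change -3.91, SE 0.13, adjusted p = 3.47e-10) and Nlrp5 from 422 ± 26.7 to 61.2 ± 10.9. Padi6 had 774, 315, 476 and 521 FPKM in MII oocytes and 64.3 to 85.3 in 2-cell embryos, a change of -2.75 (SE 0.22, adjusted p = 4.6e-07), with no overlap. Nlrp14, Nlrp2 and Nlrp4b also fell. Ooep was not called (change -0.30), and the rise of Nlrp4f from 242 to 501 FPKM (change 1.05) stayed above 1 under none of the 4 other scalings.

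Of 11 tested oocyte transcription factors 3 rose and 3 fell, and 1 of the rises held under every other scaling. Lhx8, a LIM homeobox factor of the growing oocyte, rose from 25.2 ± 2.19 to 90.7 ± 7.50 FPKM (change 1.80, SE 0.09, adjusted p = 8.73e-09) and stood at 0.13 FPKM in morulae. Gtf2a1l, a germ cell form of TFIIA, fell from 63.3 ± 2.26 to 4.81 ± 0.616 FPKM. The rise of Taf4b, a TFIID subunit, from 3.25 to 8.50 FPKM (change 1.16) was called under none of the 4 other scalings.

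Of 33 listed regulators of the M phase 32 were tested, and 10 rose (31.2%) and 5 fell (15.6%). These shares are close to the 33.7% and 12.7% of all genes, and the median change was -0.10. Passing the filter through a single stage fixed the direction of 2 of the 32. Beside Mos, the fall was largest for Bub1b, a kinase of the spindle checkpoint, from a mean of 323 to one of 5.35 FPKM (change -5.69, SE 0.11, adjusted p = 6.89e-12). Cdc20, an activator of the anaphase-promoting complex, fell from 210.4 ± 14.9 to 67.5 ± 10.3 FPKM, and Plk1 and Aurkb fell by 1.59 and 1.01 on the log2 scale. Cdc25c, a phosphatase that activates CDK1, had 1.01, 1.17, 1.28 and 0.853 FPKM in MII oocytes and 32.0, 27.5, 36.6 and 31.1 in 2-cell embryos, a change of 3.98 (SE 0.11, adjusted p = 1.23e-10). Cks2, a CDK-binding protein, rose from 5.97 ± 0.892 FPKM to 36.1, 35.3, 71.0 and 106 in the 4 2-cell libraries, which differed among themselves by up to 3-fold. Wee1, the kinase that holds CDK1 inactive in somatic cells, rose from 0.697 to 6.71 FPKM, while its oocyte counterpart Wee2 was not called, with 431 and 565 FPKM. Ccnb1, cyclin B1, had 722 ± 58.4 and 500.5 ± 36.3 FPKM, a change of -0.53.

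Of 19 tested genes of translation control 4 rose and 5 fell. Cpeb1, which binds the cytoplasmic polyadenylation element, fell from 209 ± 24.6 to 18.8 ± 1.02 FPKM (change -3.40, SE 0.09, adjusted p = 8.72e-11), and Zar1 fell from 122 ± 43.6 to 14.6 ± 3.93. Ybx2, an RNA-packaging protein, rose from 4.18 ± 0.252 to 24.5 ± 4.41 FPKM, and Eif4e1b, an oocyte cap-binding protein, from 3.88 ± 0.604 to 20.8 ± 2.41. Of 29 tested genes of RNA decay 6 rose, 3 of them under every other scaling, and 5 fell. The decapping enzyme Dcp2 rose from 7.22 ± 0.616 to 38.3 ± 4.53 FPKM (change 2.25, SE 0.10, adjusted p = 4.53e-09), and its cofactor Dcp1a fell from 398.5 ± 26.6 to 76.9 ± 8.10, with values that fitted different lengths in the 2 tables. Zfp36l2, which binds AU-rich elements, rose from 0.454 to 3.80 FPKM. Passing the filter through a single stage fixed the direction of 2 of the 29, Zfp36l2 among them. Pabpn1l, a poly(A)-binding protein, fell from 59.4 ± 6.91 to 3.50 ± 0.390 FPKM. The deadenylase subunit Cnot7 had 107 ± 4.45 and 136 ± 3.73 FPKM and was not called (change 0.34).

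Of 85 listed ribosomal protein genes 59 reached the level to be tested, 46 rose, 13 were not called and none fell, with a median change of 1.65 against 0.50 for all genes. Under every other scaling 25 of them kept the call, and 24 of the 59 passed the filter through one stage alone, which fixes their direction. Their summed level was 505 to 577 FPKM in MII libraries and 1687 to 2128 in 2-cell libraries. Rplp0, a protein of the ribosomal stalk, had 34.1, 27.5, 33.3 and 31.7 FPKM in MII oocytes and 519, 382, 403 and 364 in 2-cell embryos, a change of 3.67 (SE 0.12, adjusted p = 2.89e-10). It had 2646 FPKM in morulae, and 33.1% of its words are shared. Rps24 rose from 0.0769 to 10.3 FPKM, with different lengths in the 2 tables. The Rplp0 window is shown beside the others above as that of a gene expressed in nearly all cells.
Rplp0, chr5:115559217-115559516, plus strand: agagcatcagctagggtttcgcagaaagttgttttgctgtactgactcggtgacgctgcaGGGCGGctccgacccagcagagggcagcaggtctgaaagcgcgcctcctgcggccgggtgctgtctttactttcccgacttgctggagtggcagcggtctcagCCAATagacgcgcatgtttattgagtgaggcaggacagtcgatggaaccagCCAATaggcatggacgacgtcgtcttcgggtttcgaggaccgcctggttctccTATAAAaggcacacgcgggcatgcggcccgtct
It held 2 CCAAT, 1 TATAAA and 1 GGGCGG, and 24 CG dinucleotides, against 3 and 4 in the windows of Zscan4d and Zscan4c, 2 in that of Zfp352, 7 in that of Zp3 and 5 in that of H1foo.

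Of 44 tested genes of ribosome assembly and the nucleolus 18 rose, 12 of them under every other scaling, and 7 fell. The filter fixed the direction of 11 of the 44, Nop2 and Nhp2 among them, which passed through a single stage. Nop2, an rRNA methyltransferase, rose from 0.325 ± 0.0853 to 16.6 ± 5.16 FPKM (change 3.69, SE 0.18, adjusted p = 9.69e-09). Nhp2, of the box H/ACA particles, rose from 0.270 to 13.7 FPKM. Gnl2 fell from 19.2 ± 1.30 to 1.68 ± 0.329 and Ftsj3 from 38.7 ± 3.71 to 5.62 ± 1.14. Of 49 tested initiation factors 20 rose and 3 fell, and 9 of the 49 passed the filter through a single stage, which fixes their direction. Eif1a, also a marker of genome activation, rose from 1.39 ± 0.258 to 14.8 ± 1.83 FPKM (change 2.72, SE 0.12, adjusted p = 3.6e-09). Eif1ad rose from 2.42 to 19.5 FPKM, and the heme-regulated kinase Eif2ak1 fell from 70.6 ± 1.71 to 10.2 ± 0.743.

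**Figure D4:**
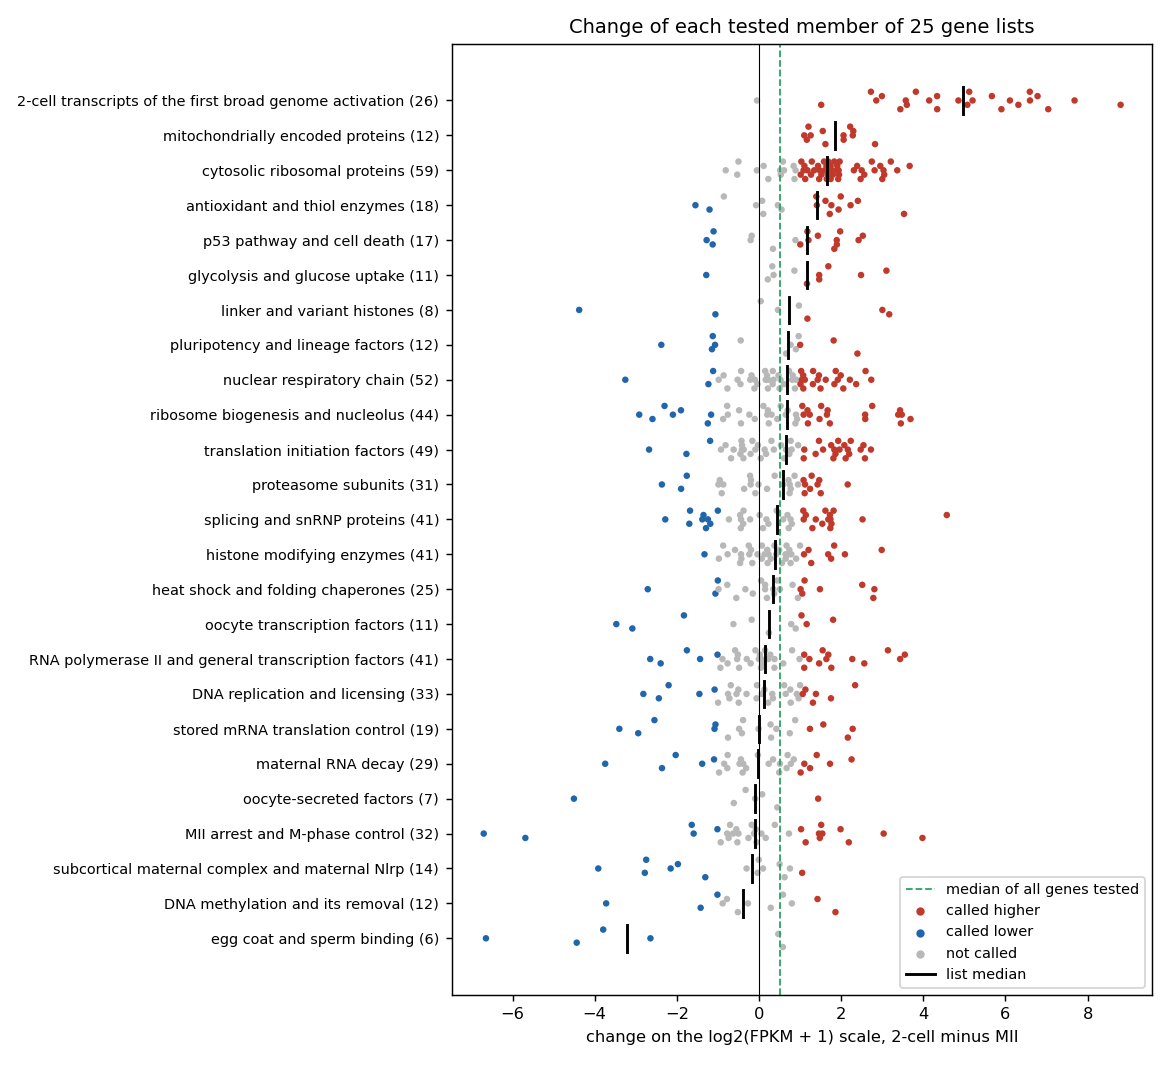
Change of each tested member of 25 gene lists with 5 or more tested members (number in brackets), 2-cell minus MII on the log2(FPKM + 1) scale; red members were called higher, blue lower and grey not called, black bars mark list medians and the dashed line the median of all genes (0.50). The median is highest for the 2-cell transcripts (4.96) and lowest for the egg coat (-3.22).

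Of 41 tested subunits of RNA polymerase II and general transcription factors 13 rose (31.7%), 8 of them under every other scaling, and 5 fell (12.2%). These shares are close to the 33.7% and 12.7% of all genes, and 5 of the 41 passed the filter through a single stage. Gtf2f1, of TFIIF, rose from 2.16 ± 0.581 to 35.9 ± 6.01 FPKM (change 3.55, SE 0.15, adjusted p = 3.2e-09) and the elongation factor Supt4a from 0.524 to 15.5. Tbp, the TATA-binding protein, rose from 1.90 ± 0.205 to 8.07 ± 1.17 FPKM. Polr2d fell from 167.5 ± 14.0 to 31.2 ± 4.17 and Taf8, of TFIID, from 101 ± 5.29 to 15.7 ± 4.76. Polr2a, the largest subunit of the polymerase, had 1.24 ± 0.167 and 1.31 ± 0.176 FPKM (change 0.05, adjusted p = 0.678), and its sign turned under the 4 other scalings. Of 41 tested splicing genes 15 rose and 9 fell, and 9 of the rises held under every other scaling. The filter fixed the direction of 4 of the 41, Snrpc among them. Snrpc, of the U1 particle, had 0.533 to 0.764 FPKM in MII oocytes and 28.5 to 46.5 in 2-cell embryos, a change of 4.57 (SE 0.14, adjusted p = 2.24e-10), while Prpf6, of the tri-snRNP, fell from 38.7 ± 7.54 to 7.12 ± 1.31.

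The RNA of the maintenance methyltransferase fell with that of a demethylating enzyme. Dnmt1, which copies methylation at replication, had 149, 143, 140.4 and 133.5 FPKM in MII oocytes and 8.73, 9.86, 8.83 and 12.1 in 2-cell embryos, a change of -3.72 (SE 0.10, adjusted p = 9.05e-11). Tet3, which oxidizes methylcytosine in the zygote, fell from 66.3 ± 5.75 to 24.1 ± 0.976 FPKM. Dppa3, a maternal protein that shields methylation from Tet3, rose from 76.3 ± 7.55 to 282 ± 47.0 FPKM (change 1.86, SE 0.12, adjusted p = 6.97e-08). In all, 2 of 12 tested genes of DNA methylation rose and 3 fell, Uhrf1 being the third. The other riser was Mbd3, whose call was lost under quantile normalization (change 0.64). Mbd3 passed the filter through the 2-cell libraries alone, which fixes its direction.

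Of 41 tested histone-modifying enzymes 8 rose, 5 of them under every other scaling, and 1 fell. The filter fixed the direction of 6 of the 41, Hdac1 and Kdm5b among them, which passed through a single stage. The deacetylase Hdac1 rose from 0.674 ± 0.131 to 12.3 ± 1.42 FPKM (change 2.99, SE 0.11, adjusted p = 1.03e-09), although 35.3% of its words are shared. Suz12, of the Polycomb repressive complex, rose from 51.4 ± 7.75 to 221 ± 17.7, and the H3K4 demethylase Kdm5b from 0.618 to 4.80. Kdm6b, an H3K27 demethylase, fell from 19.6 ± 2.13 to 7.26 ± 1.33. Among the variant histones H2afz rose from 11.2 ± 0.581 to 97.4 ± 12.5 FPKM and H2afv from 1.99 to between 22.1 and 29.4. H2afx fell by 1.06 on the log2 scale, and leaving out replicate 2 of the MII libraries or replicate 3 or 4 of the 2-cell libraries brought the change to between -0.97 and -0.91, past the limit for a call.

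All 12 tested mitochondrially encoded protein genes rose, with a median change of 1.84, and 7 kept the call under every other scaling. Their summed level was 4336 to 6203 FPKM in MII libraries and 19842 to 23088 in 2-cell libraries. mt-Cytb, the cytochrome b of complex III, had 1830, 1727, 1464 and 2081 FPKM in MII oocytes and 8171, 8995, 8216 and 9296 in 2-cell embryos, a change of 2.30 (SE 0.11, adjusted p = 5.15e-09). mt-Nd3 changed by 2.83, but 98.0% of its words occur in other annotated transcripts. Among the 12 it alone passed the filter through a single stage, that of the 2-cell libraries, which fixes its direction. These RNAs are polyadenylated in the mitochondrion by an enzyme of their own, and whether tails or levels changed was not tested.

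Of 52 tested nuclear genes of the respiratory chain 21 rose and 3 fell, and 11 of the rises held under every other scaling. The filter fixed the direction of 7 of the 52, Atp5g1 among them. Atp5g1, of the ATP synthase, rose from 0.293 ± 0.107 to 7.60 ± 0.760 FPKM, and Uqcrc2, a core protein of complex III, fell from 60.5 ± 1.49 to 5.53 ± 1.19 (change -3.25, SE 0.13, adjusted p = 1.53e-09). Of 11 tested genes of glycolysis 6 rose, 4 of them under every other scaling, and 1 fell. Ldhb, the oocyte's main lactate dehydrogenase, had 1318, 1631, 1721 and 1591 FPKM in MII oocytes and 801, 535, 540 and 722 in 2-cell embryos. Its change was -1.28 (SE 0.14, adjusted p = 5.74e-06). Another form, Ldha, rose from 0.390 to 6.95 FPKM, but it passed the filter through the 2-cell libraries alone, which fixes its direction. The directions of these forms are therefore not contrasted. Tpi1 rose from 0.659 to 13.2 FPKM. Gapdh was too low to be tested, with 0.474 ± 0.0898 and 1.07 ± 0.222 FPKM.

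Of 18 tested antioxidant enzymes 10 rose and 2 fell, and 4 of the 18 passed the filter through a single stage, which fixes their direction. Prdx4, a peroxiredoxin of the endoplasmic reticulum, had 0.421 to 0.558 FPKM in MII oocytes and 14.4, 26.3, 14.2 and 12.8 in 2-cell embryos, a change of 3.53 (SE 0.19, adjusted p = 1.73e-08). Prdx5 rose from 2.13 to 15.7 FPKM, and thioredoxin reductase Txnrd1 fell from 20.1 ± 1.84 to 6.23 ± 0.655. Of 17 tested genes of the p53 pathway and of cell death 10 rose and 3 fell, with the direction of 5 of the 17 fixed by the filter. The cell cycle inhibitor Cdkn1a rose from 0.464 ± 0.192 to 7.07 ± 2.47 FPKM (change 2.42, SE 0.20, adjusted p = 4.68e-07), and the survival factor Mcl1 from 0.408 to 7.10. Mdm2, the ligase that degrades p53, fell from 102 ± 3.75 to 46.1 ± 2.63 FPKM, and Trp53 itself from 30.5 ± 1.74 to 13.7 ± 1.96.

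Of 25 tested chaperones 7 rose, 4 of them under every other scaling, and 3 fell. The shares that rose and fell were close to the 33.7% and 12.7% of all genes. Hsp90aa1 had 1383, 1403, 1285 and 1328 FPKM in MII oocytes and 224, 192, 175 and 237 in 2-cell embryos, a change of -2.71 (SE 0.10, adjusted p = 7.48e-10), and stood at 1823 FPKM in morulae; 47.5% of its words are shared. Hspa2 rose from 2.24 to 21.5 FPKM, and Cct6a, of the chaperonin ring, from 0.815 to 11.6. Hspa1b, often cited among early embryonic transcripts, was too low to be tested, with 0.0792 ± 0.0527 and 0.212 ± 0.102 FPKM. Of 31 tested proteasome subunits 9 rose (29.0%) and 3 fell (9.68%), again near the shares of all genes. Under every other scaling 3 of each held, and 3 of the 31 passed the filter through a single stage, which fixes their direction. Psmc3 rose from a mean of 1.21 to 8.89 FPKM, and Psmd1 fell (53.1 to 56.1 FPKM in MII libraries and 9.22 to 10.6 in 2-cell libraries).

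Of 33 tested replication genes 6 rose and 5 fell, but under every other scaling 2 rises and 5 falls held. Passing the filter through a single stage fixed the direction of 1 of the 33. Ccne1, cyclin E1, rose from 10.4 ± 0.798 to 57.8 ± 11.8 FPKM (change 2.34, SE 0.13, adjusted p = 2.85e-08) and Orc2, of the origin recognition complex, from 10.2 to 36.9. Its partner Orc1 fell from 62.6 ± 4.25 to 10.8 ± 1.81, and Gins3, of the replicative helicase, from 11.3 ± 0.476 to 0.755 ± 0.218.

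Of 19 listed pluripotency and lineage factors 12 were tested, 3 rose and 4 fell, and Sox2, Nanog and Cdx2 were among the 7 too low to be tested. The filter fixed the direction of 4 of the 12, which passed through a single stage. Zfp42 rose from 0.125 ± 0.0814 FPKM to 3.08, 4.39, 8.49 and 4.86 in the 4 2-cell libraries, and had 63.2 FPKM in morulae. Sall4 fell from 217 to 246 FPKM in MII libraries to 33.3 to 52.5 in 2-cell libraries (change -2.38, SE 0.13, adjusted p = 1.59e-08) and stood at 173 FPKM in morulae. Pou5f1 had 5.43 ± 1.45 and 10.1 ± 3.18 FPKM, a change of 0.77 (adjusted p = 0.00815) with overlapping groups. Actb, the cytoplasmic actin, had 12.3 ± 0.902 and 27.3 ± 8.08 FPKM. Its change of 1.04 was called under none of the 4 other scalings, and not without replicate 1 or replicate 4 of the 2-cell libraries (0.97 and 0.89).

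The labelled stages were checked against their defining markers. Of the oocyte markers, Gdf9, Mos, Zp2, Zp3 and Nlrp5 were high in MII oocytes and fell. The oocyte markers Bmp15 and Oosp1 were not called and so do not separate the stages. The 2-cell markers Zscan4d, Zscan4c, Zfp352, Tdpoz4, Tcstv1 and Tcstv3 all rose. Among them Zscan4d, Zscan4c, Zfp352 and Tdpoz4 passed the filter through the 2-cell libraries alone, which fixes their direction. For these the check rests on level and not on the call. Of 16 markers of cumulus and granulosa cells, which surround the oocyte in the follicle, 1 was tested, and the list summed to 9.95 to 12.7 FPKM in MII libraries and 4.69 to 9.96 in 2-cell libraries; that member, the aromatase Cyp19a1, fell from 8.85 to 2.65 FPKM. Of 11 sperm markers Tnp1, Tnp2, Smcp, Gapdhs and Spem1 were at 0 or not listed in the 8 libraries, and the list summed to 12.5 to 16.7 and 17.01 to 21.7 FPKM, with Odf2 alone tested and not called. Of 12 markers of blood and stroma Hbb-bs, Hbb-bt and Col3a1 were at 0 or not listed, and the list summed to 12.2 to 14.0 and 5.46 to 8.63 FPKM. Pecam1 fell from 10.3 to 2.68 FPKM, and Hba-a1, with 72.3% of its words shared, has no entry in the oocyte table and had 1.68 to 4.22 FPKM in 2-cell embryos. Their part in the stage change was not tested.

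The same change could be read in libraries that the comparison above did not use, those of the 5 MII and 4 2-cell samples with VCD, which come from the same 2 tables and so share the run with the PBS libraries. With VCD 3529 of 10854 genes tested there rose (32.5%) and 1335 fell (12.3%). Of the 4832 genes called with PBS and tested with VCD, 4429 (91.7%) were called in the same direction and 0 in the opposite one. The change of Mos was -6.70 with either agent and that of Zfp352 was 8.80 with either, while mt-Cytb changed by 1.89 with VCD and 2.30 with PBS, a difference that did not pass the test below.

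**Figure D5:**
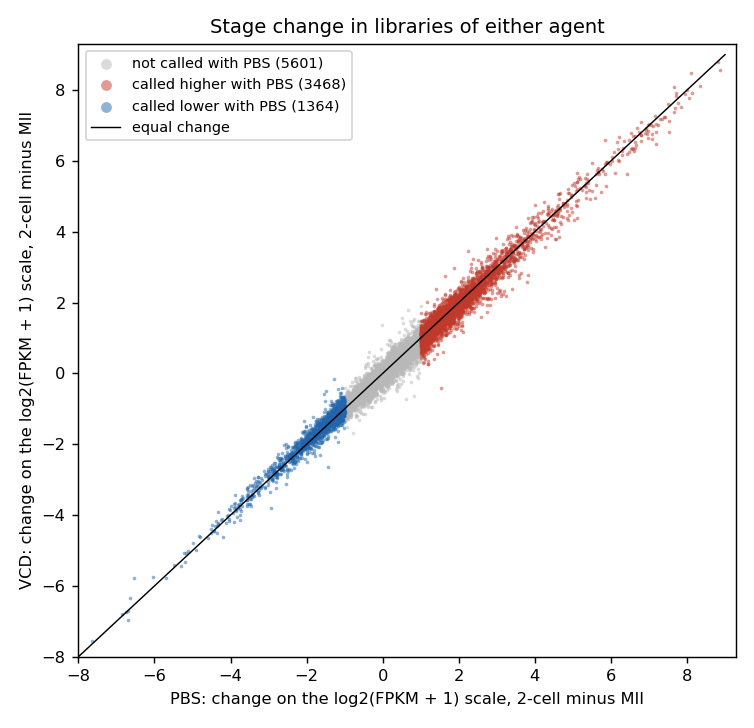
Stage change of 10433 genes tested with both agents, 2-cell minus MII on the log2(FPKM + 1) scale, in PBS libraries (x axis; 4 and 4) and VCD libraries (y axis; 5 MII and 4 2-cell); colours give the call with PBS and the line equal change. Genes called with PBS lie along the line at both ends.

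Whether the stage change differed between the agents was tested as an interaction over 17 libraries, in which a constant difference between the tables drops out. Of 12160 genes 1 passed (0.00822%), and 417 had an unadjusted p below 0.05, where 608 would be expected if no gene differed. For 4996 of the 5015 genes called with PBS (99.6%) the interaction was below 2-fold in either direction. The gene that passed was Rnu73b, a small nucleolar RNA of 71 bases at chr3:86140618-86140688 (interaction -2.01, SE 0.27, adjusted p = 0.0072). It has no entry in the oocyte table, so that its 9 MII values were set to 0, and stood at 3.59, 3.02, 6.08 and 2.51 FPKM in 2-cell embryos with PBS, and at 0 in 3 and 0.748 in the other of those with VCD. These PBS values rest on 4, 4, 7 and 3 reads. Next in order of p were Pms2, Gipc1, H2-Q6 and Gm24842, none of which passed.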

How the data were processed

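RNA-seq libraries (Smart-seq2) of 4 MII oocyte and 4 2-cell embryo samples with PBS were compared. The values are FPKM as the authors deposited them, in 1 table for oocytes and 1 for embryos; Bowtie2 2.2.3 and TopHat2 2.0.12 are named per the submitters' processing notes, with a build entry, galGal4, that is not the mouse genome the identifiers belong to, while no source used here names the counting tool, the annotation or the use of strand. Tables were joined on Ensembl identifier, a gene missing from a table was set to 0 there, and a gene was kept if 4 or more of the 8 libraries had it at 1 FPKM or above. With summed exon lengths of GENCODE M21, over 91.1% of values under 200 reads came out as whole reads within 0.01, which gave the depths.

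log2(FPKM + 1) was fitted with limma 3.58.1 (R 4.3.3; empirical Bayes with trend, two-sided moderated tests, Benjamini-Hochberg adjustment over all genes tested); a call needed an adjusted p below 0.05 and a change of at least 1. The interaction used 17 libraries. On simulated data for this comparison (10814 genes, 50 changed at each size), 84% of 2-fold changes passed the adjusted p and 46% were called, 100% of 4-fold changes were called, and 2 unchanged genes were called. Changes were placed only in genes with a mean above 2 on the log2(FPKM + 1) scale, so these rates do not cover lower genes. A 2-fold change on that scale lies at the limit for a call. Named genes were the 12 largest rises and falls with groups apart and a mean of 20 FPKM or more, 1 per family; the 2 largest of each direction in each list; a panel; and the 5 smallest p of the interaction. Other genes named in a list, the Obox, Zscan4, Usp17l and Tdpoz families and the most abundant genes were picked after their values were seen. Members and lists were chosen with earlier results of these data known. Motif shares were not compared between called groups, a void comparison because RefSeq windows matched 7568 of 10814 genes (70%, and 62.6% of those that rose), under the 80% required. Values for single genes carry no interval, since their spread over libraries is given.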

Additional observations from a re-analysis of the deposited data

Results flagged for a closer look

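In 9 genes and 1 library measure, 1 of 4 libraries of a stage stood apart from the other 3 by a gap beyond Dixon's 95% limit. Such gaps arise by chance in about 1 in 20 groups, which is 12.9 of the 259 groups examined, and 10 were found. In MII replicate 2 the level of H1foo was 5812 FPKM (5856 to 5859 in the others), that of Ybx2 3.81 (4.28 to 4.34), that of Prpf38a 3.72 (4.46 to 4.51) and that of H2afx 34.7 (at most 27.4), and its mean Pearson r with its stage was 0.9918 against 0.9917. A430060F13Rik had 0.283 FPKM in MII replicate 4 and was at 0 in the others. In 2-cell replicate 1 the level of U2af1 was 12.6 FPKM (10.7 to 10.9 in the others) and that of Psmc3 6.94 (9.50 to 9.60). Prdx4 had 26.3 FPKM in 2-cell replicate 2 (from 12.8 in the others), and Fbxl6 had 8.24 in 2-cell replicate 4 (10.8 to 11.2). The stage change of Rnu73b differed between the agents by -2.01 on the log2 scale (limma, adjusted p = 0.0072), on few reads. The cause was not tested for any of these.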

How the results depend on the processing

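No call turned direction under any alternative of the stage comparison. Of 3641 higher and 1374 lower calls (5015 in all), a filter of 5 FPKM left 2030 higher and 3117 in all, quantile normalization gave 2102 and 2351, and the adjusted p alone gave 6084 and 2845 (8929 in all). Leaving out 1 library gave 1972 to 3635 higher and 1148 to 1388 lower. Fewer genes then reach the level in 4 libraries: without a 2-cell library 8770 to 8786 were tested, with 1972 to 2021 higher and 1357 to 1388 lower, and without an MII library 10422 to 10438, with 3605 to 3635 higher and 1148 to 1171 lower. On the genes of the full set, an alternative chosen after seeing the data, 3593 to 3659 were higher and 1358 to 1390 lower. A pseudocount of 0.1 gave 4369 and 1701, and limma-voom on recovered reads 4344 and 1781 of 10792. Genes of the same length in both tables, also chosen after seeing the data, gave 3383 and 1269 of 10169. Polr2a changed by 0.05, and by -0.08 with the same sum, -0.07 without abundant genes in it, -0.19 centred on the median and -0.74 after quantile normalization. Pms2 changed by 0.44, and by -0.24 after quantile normalization; the cause was not tested. Of 3119 values for named genes under alternatives, 3078 kept direction and side of the threshold, and of 1508 list counts 1361 stayed within 1.5 times. Hspa5 changed by -0.99 without MII replicate 3 or 2-cell replicate 4.

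The interaction passed 1 gene, and 0 with a pseudocount of 0.1 or with a filter of 5 FPKM, where 381 and 172 genes had an unadjusted p below 0.05 in limma. Leaving out 1 library gave 0 to 3 (0 without 2-cell PBS replicate 3 or 4, 2 without 2-cell VCD replicate 1 and 3 without 2-cell VCD replicate 4). With the replicate block 1 gene passed; deviations of same-numbered PBS and VCD libraries correlated at -0.096, -0.168, -0.289 and -0.257 in MII oocytes and 0.161, -0.058, -0.0129 and -0.15 in 2-cell embryos, so the numbers are not taken to pair the samples. MII and 2-cell libraries share no labelled replicate, and that comparison had no block. Low genes rest on few reads, and values near the step of 1 read carry little information.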
